A study of Mus musculus with 4 samples.

Results

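Undifferentiated myoblasts of 2 mouse muscles were ranked by the summed level of 6 genes of mitosis, and within each muscle the quartile of cells with the highest score was set against the quartile with the lowest. A cell entered the ranking with at least 5000 UMIs (unique molecular identifiers, each counting 1 captured transcript) and at most 10% of them from mitochondrially encoded genes. It also held at most 2 UMIs per 10000 from the sum of Myog, Mymk and Mymx, genes of commitment and of cell fusion. Cells were chosen by their score, the sum of Mki67, Top2a, Cdk1, Birc5, Ube2c and Ccnb1 UMIs per 10000, which is a measured value. Of 7597 barcodes of the activated library of extraocular muscle (EOM), 6110 held enough UMIs, 5844 of these also passed the mitochondrial limit, and 2827 of the 5844 (48.4%) were undifferentiated. Of 6086 barcodes of the activated library of tibialis anterior (TA), 4733 held enough UMIs, 4428 also passed the mitochondrial limit, and 1280 (28.9%) were undifferentiated. The comparison therefore held 2052 cells, with 706 high-score and 706 low-score cells in EOM and 320 high-score and 320 low-score cells in TA, out of 4107 undifferentiated cells and 23170 barcodes in the series.

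All cells came from Tg:Pax7-nGFP mice aged 2 to 4 months, whose transgene puts a nuclear green fluorescent protein under the control of Pax7, the transcription factor of muscle stem cells. Cells were sorted by this fluorescence from the eye-moving EOM or from the TA of the shin, plated on Matrigel and grown in growth medium for 4 days at 3% oxygen. The same procedure of sort and culture is described for both muscles. High-score and low-score cells of a muscle came from 1 library, while EOM and TA cells came from separate ones. Between EOM and TA, the muscle cannot be told apart from the library and its preparation. The 2 quiescent libraries of the study, from the same muscles without culture, served only as background levels. Each muscle was 1 library, the number of animals behind it is not given in the sources used here, and no sort after the culture is described in them. Because there was 1 library per muscle and the score came from the same counts as the values, no test was made. Every ratio is a description with an exact Poisson interval where one is given, and intervals and detection floors cover counting error only.

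Proliferating myoblasts copy their DNA in S phase under the E2F transcription factors and cyclins E and A, then switch on a second wave of genes in G2 and mitosis, largely through the MuvB complex, B-MYB and FOXM1. That second wave supplies cyclin B with its kinase CDK1, the Polo and Aurora kinases, the spindle and the kinetochores, and the anaphase-promoting complex then destroys many of these proteins as the cell divides. Muscle stem cells leave quiescence in culture, divide as Myod1- and Myf5-expressing myoblasts, and stop dividing once Myog and the p21 gene Cdkn1a come on. A score made of mitotic transcripts can therefore separate late from early stages of the cycle as well as cycling from arrested cells.

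The score chose the cells, so its spread is not a finding. Its median was 32.6 UMIs per 10000 in high-score and 9.12 in low-score EOM cells, and 31.2 in high-score and 10.1 in low-score TA cells. In EOM the lowest score inside the high-score quartile was 25.3665 and the next score outside it 25.366, while the low-score quartile ended at 11.6056 with 11.6198 just outside. In TA these limits were 23.7366 inside and 23.7132 outside at the top, and 12.2486 inside and 12.2803 outside at the bottom. In EOM 104 cells lay within 1 UMI per 10000 of the upper limit and 308 within 1 of the lower limit, and in TA the counts were 48 and 150. Few cells lacked the score genes altogether, since the score was 0 in 5 of the 2827 EOM cells and in 7 of the 1280 TA cells. By contrast it was 0 in 1467 of 1532 quiescent EOM cells that passed the same filters (95.8%) and in 1554 of 1604 quiescent TA cells (96.9%), at much lower depths of 5939 and 6203.5 median UMIs.

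The low-score cells held the higher level of S phase transcripts in both muscles. A list of 58 genes of S phase and DNA replication, none of them in the score, summed to a median of 46.0 UMIs per 10000 in high-score and 66.2 in low-score EOM cells. In TA the sum was 52.4 in high-score and 71.5 in low-score cells. From the lowest to the highest score quartile the medians were 66.2, 64.8, 56.3 and 46.0 in EOM and 71.5, 71.4, 63.7 and 52.4 in TA. The same sum had a median of 16.8 in EOM and 19.98 in TA among 1381 and 926 differentiated cells of the same libraries, taken as those with more than 40 UMIs per 10000 of Myog, Mymk and Mymx. Among quiescent cells the median was 8.14 in EOM and 6.31 in TA. In the high-score quartiles 93 of 706 EOM cells (13.2%) and 36 of 320 TA cells (11.25%) lay above the S phase median of the undifferentiated cells of their muscle, against 495 (70.1%) and 224 (70%) in the low-score quartiles. The sum was at or under the median of differentiated cells in 21 of 706 low-score EOM cells and 11 of 320 low-score TA cells. The label of non-cycling cells thus goes against these values for most of the low quartile, and the groups are called high-score and low-score cells below. Across cells the score and the S phase sum had a Pearson correlation of -0.43 in EOM (2827 cells) and -0.36 in TA (1280 cells), a description in which both sums share each cell's total as denominator.

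**Figure D1:**
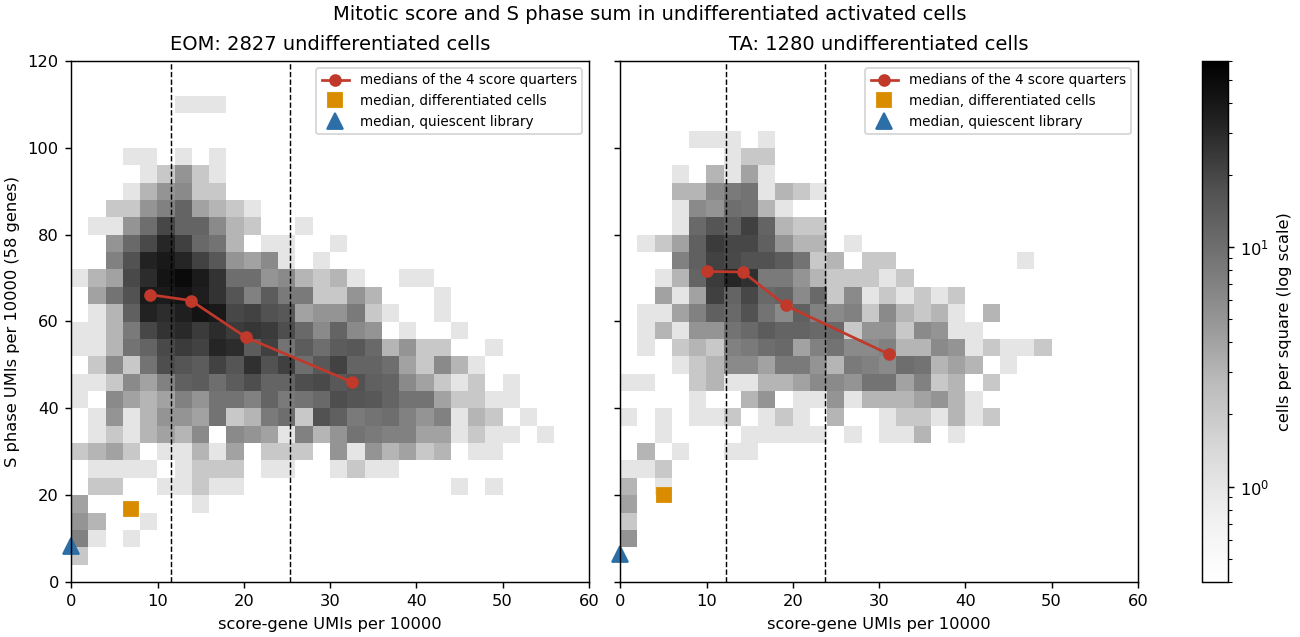
Mitotic score (x axis) against summed S phase genes (y axis), both in UMIs per 10000, of undifferentiated cells in EOM and TA, with cells per square in grey (log scale), quartile limits dashed, quartile medians joined in red, and medians of differentiated (orange) and quiescent cells (blue). The red line starts at S phase medians of 66.2 (EOM) and 71.5 (TA) in the low-score quartile, far above the orange squares at 16.8 and 19.98, and ends at 46.0 and 52.4 in the high-score quartile.

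A small set of cells was low in both sums. Chosen after the values were seen, the undifferentiated cells at or under the differentiated medians of both the score and the S phase sum numbered 20 in EOM (0.707%) and 11 in TA (0.859%), and all of them fell in the low-score quartile. Their pooled depth was 294724 UMIs in EOM and 176320 in TA, and their median score was 0.722 and 0.819 UMIs per 10000. Pax7 stood at 159 CPM in the 20 EOM cells (47 UMIs) and 147 CPM in the 11 TA cells (26 UMIs), where CPM is the UMIs of a gene per 1000000 UMIs of the pooled cells. Cdkn1a, which encodes the cyclin-dependent kinase inhibitor p21, stood at 238 CPM in the EOM set and 284 CPM in the TA set (70 and 50 UMIs), against 42.6 and 91.9 CPM in the whole low-score quartiles. Cdkn1c, the gene of the inhibitor p57, stood at 159 CPM in the EOM set (47 UMIs), against 62.2 CPM in all low-score EOM cells. In the TA set it stood at 11.3 CPM (2 UMIs). The quiescence genes Calcr and Chrdl2 had no UMI in either set, which allows up to 10.2 CPM in EOM and 17.01 CPM in TA. Fibroblast markers summed to 865 CPM in the EOM set and 448 CPM in the TA set, against 325 and 167 CPM in the whole low-score quartiles. Mural or smooth muscle markers summed to 3837 CPM in the EOM set and 1492 CPM in the TA set, against 2265 and 1735 CPM in the whole quartiles. That list holds Des, which is also in the muscle stem cell list and stood at 957 CPM in the EOM set and 805 CPM in the TA set. Tenocyte markers summed to 61.1 and 56.7 CPM in the sets, against 25.2 and 73.9 CPM in the quartiles. The part of these cell types in the values was not tested.

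High-score cells were deeper than low-score cells. Their median UMI count was 29022.5 against 19307.5 in low-score EOM cells (1.503-fold) and 31988 against 22280 in low-score TA cells (1.44-fold). The pools summed to 20690070 against 13651782 UMIs in EOM and 10117073 against 7157464 UMIs in TA. Median detected genes were 5057.5 in high-score and 4081.5 in low-score EOM cells, and 5180.5 and 4349 in high-score and low-score TA cells. The median share of mitochondrially encoded UMIs was 5.72% in high-score and 6.10% in low-score EOM cells, and 5.70% and 6.05% in high-score and low-score TA cells. Levels below are CPM of these pools, so the difference in total drops out of the ratios. A higher pooled level may come from more cells with a transcript or from more copies per cell, and these were not counted apart here. A zero in a pool allows up to 0.145 CPM in high-score and 0.220 CPM in low-score EOM cells, and 0.297 and 0.419 CPM in high-score and low-score TA cells. A gene was measured in a comparison when it reached 20 CPM in either pool. It was called when the log2 ratio of CPM + 1 was at least 1 in size (2-fold), a scale that understates the ratios of low genes. Genes that reached 20 CPM only in the pool where they were high had to differ, so counts over measured list members describe these pools and support nothing further.

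Of 5376 genes measured in EOM, 91 were at least 2-fold higher in high-score than in low-score cells (1.69% of those measured) and 16 were at least 2-fold lower (0.298%). Of 5291 genes measured in TA, 72 were higher (1.36%) and 18 lower (0.34%). Most of the transcriptome barely differed: 94.2% of measured genes in EOM and 93.1% in TA lay within 0.5 of 0 on the log2 scale, and the median over all measured genes was 0.02 in EOM and 0.03 in TA. The cell cycle lists include the score genes, but not the lists of inhibitors of cyclin-dependent kinases and of growth arrest genes. Their members made up 61 of the 91 higher and 12 of the 16 lower genes in EOM, and 52 of the 72 higher and 12 of the 18 lower genes in TA. The higher counts include 5 score genes in each muscle, which were used to choose the cells. Without the score genes they were 56 higher and 12 lower in EOM and 47 higher and 12 lower in TA, out of 255 list members measured in EOM (4.74% of measured genes) and 257 in TA (4.86%).

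The score genes themselves chose the cells, and their levels are given as a description. Ccnb1, the gene of the mitotic cyclin B1 (chr13:100778650-100786570 in GRCm38), stood at 308 CPM in high-score and 55.7 CPM in low-score EOM cells and at 309 and 72.9 CPM in high-score and low-score TA cells. Ube2c, the ubiquitin-conjugating enzyme of the anaphase-promoting complex, stood at 836 CPM in high-score and 122 CPM in low-score EOM cells and at 846 and 155 CPM in high-score and low-score TA cells. Top2a, the topoisomerase that untangles sister chromatids, stood at 673 CPM in high-score and 137 CPM in low-score EOM cells and at 612 and 149.9 CPM in high-score and low-score TA cells. These were the steep members of the score. Cdk1, the kinase partner of cyclin B, stood at 612 CPM in high-score and 177 CPM in low-score EOM cells, and 609 and 181 CPM in high-score and low-score TA cells. Mki67, which coats mitotic chromosomes, stood at 345 CPM in high-score and 90.5 CPM in low-score EOM cells, and 288 and 84.2 CPM in high-score and low-score TA cells. Birc5, the chromosomal passenger survivin, was the one score gene under the 2-fold limit in both muscles (log2 ratios 0.96 in EOM and 0.80 in TA). It stood at 561 CPM in high-score and 288 CPM in low-score EOM cells and at 528 and 303 CPM in high-score and low-score TA cells.

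Promoters are shown for 5 genes of the high-score side (Ccnf, Ube2c, Cdk1, Top2a and Kif11) and 3 of the low-score side (Cdc6, Hells and Ung). Of these Ube2c, Cdk1 and Top2a are score genes, which chose the cells. The promoters are shown because genes of G2 and mitosis and genes of S phase are known to carry different short motifs before their starts. Each line gives the 150 bases up to the start that RefSeq annotates, 5′ to 3′ on the gene's strand, from RefSeq sequence of GRCm38.p6. Gene positions elsewhere in the text are those of GENCODE, whose starts differ for 7 of the 8 genes. The RefSeq start lies 350 bases inside the GENCODE gene for Cdc6, so that its window is wholly within that gene. It lies 75 bases inside for Ccnf and Hells, 49 for Ung, 31 for Ube2c and 26 for Cdk1, at the same base for Top2a and 21 bases before the gene for Kif11. Capitals mark 3 motifs on either strand: TTTGAA, the cell cycle homology element bound by MuvB, CCAAT, the box bound by NF-Y, and TTTNNCGC, a form of the E2F site. The windows are chr17:24251410-24251559 (minus strand) for Ccnf, chr2:164769779-164769928 (plus) for Ube2c, chr10:69352913-69353062 (minus) for Cdk1, chr11:99024190-99024339 (minus) for Top2a, chr19:37376232-37376381 (plus) for Kif11, chr11:98908001-98908150 (plus) for Cdc6, chr19:38930840-38930989 (plus) for Hells and chr5:114130285-114130434 (plus) for Ung.
Ccnf: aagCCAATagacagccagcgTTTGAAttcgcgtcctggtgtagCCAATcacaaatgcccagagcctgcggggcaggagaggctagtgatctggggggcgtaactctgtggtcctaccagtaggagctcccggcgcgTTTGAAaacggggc
Ube2c: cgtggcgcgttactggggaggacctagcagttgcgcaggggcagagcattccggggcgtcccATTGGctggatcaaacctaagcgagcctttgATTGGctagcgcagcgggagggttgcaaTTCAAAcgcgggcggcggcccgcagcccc
Cdk1: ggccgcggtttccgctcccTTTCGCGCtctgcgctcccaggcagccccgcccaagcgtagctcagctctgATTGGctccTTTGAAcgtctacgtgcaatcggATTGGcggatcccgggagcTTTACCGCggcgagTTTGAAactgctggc
Top2a: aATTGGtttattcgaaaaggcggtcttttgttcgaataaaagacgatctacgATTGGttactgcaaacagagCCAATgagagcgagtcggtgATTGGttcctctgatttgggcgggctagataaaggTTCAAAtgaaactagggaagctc
Kif11: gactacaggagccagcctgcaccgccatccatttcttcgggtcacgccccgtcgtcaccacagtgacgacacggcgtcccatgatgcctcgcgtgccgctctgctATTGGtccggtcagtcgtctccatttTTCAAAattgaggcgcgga
Cdc6: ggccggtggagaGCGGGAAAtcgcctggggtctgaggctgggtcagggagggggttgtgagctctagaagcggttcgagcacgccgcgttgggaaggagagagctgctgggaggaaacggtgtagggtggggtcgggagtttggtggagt
Hells: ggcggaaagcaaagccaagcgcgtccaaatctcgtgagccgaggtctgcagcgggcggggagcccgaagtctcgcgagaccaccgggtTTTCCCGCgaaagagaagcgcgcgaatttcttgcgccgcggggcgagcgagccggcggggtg
Ung: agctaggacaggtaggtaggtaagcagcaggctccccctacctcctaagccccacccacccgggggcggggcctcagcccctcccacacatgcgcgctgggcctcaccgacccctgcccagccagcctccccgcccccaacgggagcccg

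Ccnf and Cdk1 each held 2 TTTGAA and 2 CCAAT matches in these windows, Ube2c held 1 and 2, Top2a 1 and 4, and Kif11 1 and 1. Cdc6 and Hells held 1 TTTNNCGC match each and neither of the others. Cdk1 held 2 TTTNNCGC matches beside its others. The Ung window held none of the 3, which says only that these letters are not in that window. Over longer windows of 250 bases before to 50 after the start, TTTGAA was found in 35 of 55 promoters (63.6%) of genes called higher in both muscles and in 0 of 9 of genes called lower in both. The share was 12.5% of 4004 promoters of genes measured in both muscles and 18.1% of all 27025 promoters in the table. CCAAT was found in 44 of the 55 (80%) and in 5 of the 9 (55.6%), against 39.5% of measured and 37.9% of all promoters. TTTGAA and CCAAT stood together in 29 of the 55 (52.7%), against 5.89% of measured promoters. All 5 printed promoters of the high-score side held both, so they are examples and do not stand for their side. In the longer windows Nusap1 held neither, and Ccnb1, Cenpe and Fzr1 held CCAAT without TTTGAA. TTTNNCGC was found in 6 of the 55 (10.9%) and in 5 of the 9 (55.6%), against 11.1% of measured and 5.27% of all promoters. CAGCTG, a form of the E-box that myogenic factors bind, was found in 8 of the 55 (14.5%) and in 1 of the 9 (11.1%), against 11.9% of measured and 16.1% of all promoters. The genes called higher in both muscles include 5 score genes, which chose the cells. Among promoters of the 6 score genes, 4 held TTTGAA and 5 held CCAAT. The shares of the 55 thus rest in part on genes of the score. A match describes the letters and is neither a bound site nor a cause, and 66 of the 85 genes named by rule had a promoter in the table.

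Mitotic kinases and checkpoint genes were higher in high-score cells, with 12 of 22 measured members of the list called higher in EOM and 8 of 21 in TA, none lower. Over all measured genes 1.69% were called higher in EOM and 1.36% in TA. The list medians were 1.11 in EOM and 0.81 in TA on the log2 scale. From the lowest to the highest score quartile, Plk1, the Polo kinase of mitotic entry, stood at 30.03, 52.2, 84.4 and 161 CPM in EOM and at 28.6, 42.98, 72.4 and 145 CPM in TA. High-score cells were above low-score cells by 5.38-fold (95% interval 4.85 to 5.97) in EOM and 5.06-fold (95% interval 4.37 to 5.88) in TA. Aurka, the Aurora kinase of the spindle poles (chr2:172356190-172370535), stood at 15.7, 34.1, 72.1 and 134 CPM in EOM and at 31.99, 58.8, 94.9 and 186 CPM in TA. Its ratios were 8.49-fold (95% interval 7.39 to 9.802) in EOM and 5.81-fold (95% interval 5.06 to 6.69) in TA. Both kinases climbed at each of the 3 steps between quartiles in both muscles. Aurkb, the Aurora kinase of the centromere, stood at 117 CPM in high-score and 26.4 CPM in low-score EOM cells and at 116 and 33.7 CPM in high-score and low-score TA cells. Incenp, the scaffold that activates it, stood at 153 CPM in high-score and 34.2 CPM in low-score EOM cells and at 158 and 39.96 CPM in high-score and low-score TA cells. Cdc25b, the phosphatase that starts CDK1, had log2 ratios of 2.10 in EOM and 2.09 in TA, and the checkpoint kinase Ttk ratios of 1.51 in EOM and 1.30 in TA. Checkpoint genes were not uniform: Bub1b was called in EOM (log2 1.11) and under the limit in TA (0.76), and Bub1 had 0.60 in EOM and 0.43 in TA.

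Spindle motors and microtubule proteins were higher in most measured members of their list, with 20 of 26 measured members called higher in EOM and 18 of 26 in TA, none lower. Of all measured genes 1.69% in EOM and 1.36% in TA were called higher. The medians of the list were 1.78 in EOM and 1.46 in TA, the highest of the lists outside the score genes. Nusap1, which bundles spindle microtubules, stood at 10.5, 20.03, 38.8 and 102 CPM from the lowest to the highest quartile in EOM and at 10.9, 20.9, 30.6 and 81.3 CPM in TA. Kif11, the motor that pushes the poles apart and whose promoter is printed above, stood at 149 CPM in high-score and 25.2 CPM in low-score EOM cells and at 130.4 and 28.8 CPM in high-score and low-score TA cells. Aspm, a protein of the spindle poles, had log2 ratios of 2.50 in EOM and 2.41 in TA. Kif18a, which damps chromosome movement, stood at 40.8 CPM in high-score and 4.395 CPM in low-score EOM cells and at 39.8 and 5.73 CPM in high-score and low-score TA cells. Tpx2, which carries Aurora A to the spindle, had log2 ratios of 1.78 in EOM and 1.41 in TA. Stmn1, the tubulin-binding stathmin, was not called and stood at 546 CPM in high-score and 574 CPM in low-score EOM cells and at 569 and 613 CPM in high-score and low-score TA cells. Numa1, a protein of the spindle poles, was not called either, with log2 ratios of 0.09 in EOM and 0.33 in TA. In each muscle 25 of 27 list members stood higher at every step over the quartiles, against 814 (EOM) and 755 (TA) of 5651 genes.

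Kinetochore genes split by member. In EOM 9 of 29 measured genes of the kinetochore and centromere list were called higher and in TA 10 of 30, none lower. The share over all measured genes was 1.69% in EOM and 1.36% in TA. List medians were 0.59 in EOM and 0.45 in TA. Cenpf, a kinetochore protein of G2 and mitosis, stood at 72.01, 119, 225 and 479 CPM over the quartiles in EOM and at 72.5, 114, 181 and 423 CPM in TA. Cenpe, the motor that carries chromosomes to the spindle equator, stood at 288 CPM in high-score and 43.9 CPM in low-score EOM cells and at 252 and 50.2 CPM in high-score and low-score TA cells. Ndc80, which grips microtubules, had log2 ratios of 1.95 in EOM and 1.85 in TA. Sgo2a, a protector of cohesin at centromeres, had 1.89 in EOM and 1.88 in TA. Within the NDC80 complex Spc25 was called in both muscles (2.16 in EOM and 1.62 in TA). Its partner Spc24 was not called and stood at 343 CPM in high-score and 279 CPM in low-score EOM cells and at 318 and 247 CPM in high-score and low-score TA cells. Subunits of the constitutive centromere network split as well. Cenpl was called in both muscles and stood at 27.6 CPM in high-score and 3.003 CPM in low-score EOM cells and at 27.7 and 4.61 CPM in high-score and low-score TA cells. Cenpc1, outside the list and chosen after its values were seen, had log2 ratios of 1.28 in EOM and 1.11 in TA. Cenpk had -0.22 in EOM and -0.26 in TA and Cenpw -0.13 in EOM and -0.11 in TA.

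Cytokinesis genes were higher in part, with 6 of 11 called higher in EOM, 5 of 11 in TA, none lower. Beside this and the next lists, 1.69% of all measured genes in EOM and 1.36% in TA were called higher. The cytokinesis list medians were 1.10 in EOM and 0.91 in TA. Prc1, which crosslinks the microtubules of the central spindle, stood at 57.2, 97.4, 215 and 458 CPM over the quartiles in EOM and at 66.1, 109, 198 and 449 CPM in TA. Its ratios were 8.001-fold (95% interval 7.44 to 8.62) in EOM and 6.79-fold (95% interval 6.18 to 7.48) in TA. Kif23, the motor of the centralspindlin complex, had log2 ratios of 2.18 in EOM and 1.97 in TA. Anln, the scaffold of the contractile ring, had 1.42 in EOM and 1.38 in TA. Ect2, which activates RhoA at the cleavage furrow, had 1.53 in EOM and 1.21 in TA. Of the condensin and chromatin packing list 4 of 21 were called higher in EOM and 2 of 21 in TA, with medians of 0.19 in EOM and 0.08 in TA. Smc4, a core condensin subunit, had log2 ratios of 1.24 in EOM and 1.03 in TA. Ncaph, a subunit of condensin I, had 1.10 in EOM and 1.18 in TA. Ncapg, another of its subunits, had 1.29 in EOM and 0.56 in TA and was called in EOM. The cohesin list had no called member among 10 in EOM and 11 in TA (medians 0.30 in EOM and 0.27 in TA). The nuclear envelope list had none among 16 in each muscle (medians 0.29 in EOM and 0.22 in TA).

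Cyclins and the anaphase-promoting complex split by member as well, with 5 of 25 called higher in EOM, 4 of 25 in TA and none lower. Among all measured genes 1.69% in EOM and 1.36% in TA were called higher. Ccnf (chr17:24222198-24251484), whose product cyclin F is the substrate receptor of an SCF ubiquitin ligase, stood at 4.61, 10.01, 28.5 and 51.3 CPM over the quartiles in EOM and at 9.08, 13.7, 19.2 and 50.2 CPM in TA. Its ratios were 11.1-fold (95% interval 8.61 to 14.6) in EOM and 5.53-fold (95% interval 4.26 to 7.27) in TA. Its low-score level was higher in TA than in EOM while its high-score levels were close. Fzr1, the CDH1 activator of the anaphase-promoting complex, stood at 69.1 CPM in high-score and 16.8 CPM in low-score EOM cells and at 57.9 and 12.2 CPM in high-score and low-score TA cells. Espl1, the separase that cuts cohesin, stood at 21.7 CPM in high-score and 6.01 CPM in low-score EOM cells and at 25.7 and 5.03 CPM in high-score and low-score TA cells. Cdc20, the mitotic activator of the same complex, was called in EOM and not in TA (log2 1.08 in EOM and 0.62 in TA), and this contrast between muscles was not tested. Ccnb2, the second mitotic B-type cyclin, was near equal, at 137 CPM in high-score and 139 CPM in low-score EOM cells and 106 and 102 CPM in high-score and low-score TA cells. It stood at 1.53 CPM in quiescent EOM cells. Pttg1, the gene of securin, was likewise at 77.1 CPM in high-score and 82.5 CPM in low-score EOM cells and 74.8 and 74.9 CPM in high-score and low-score TA cells. The core subunits Cdc16, Anapc2 and Anapc5 had log2 ratios between -0.02 and 0.07 in the 2 muscles.

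**Figure D2:**
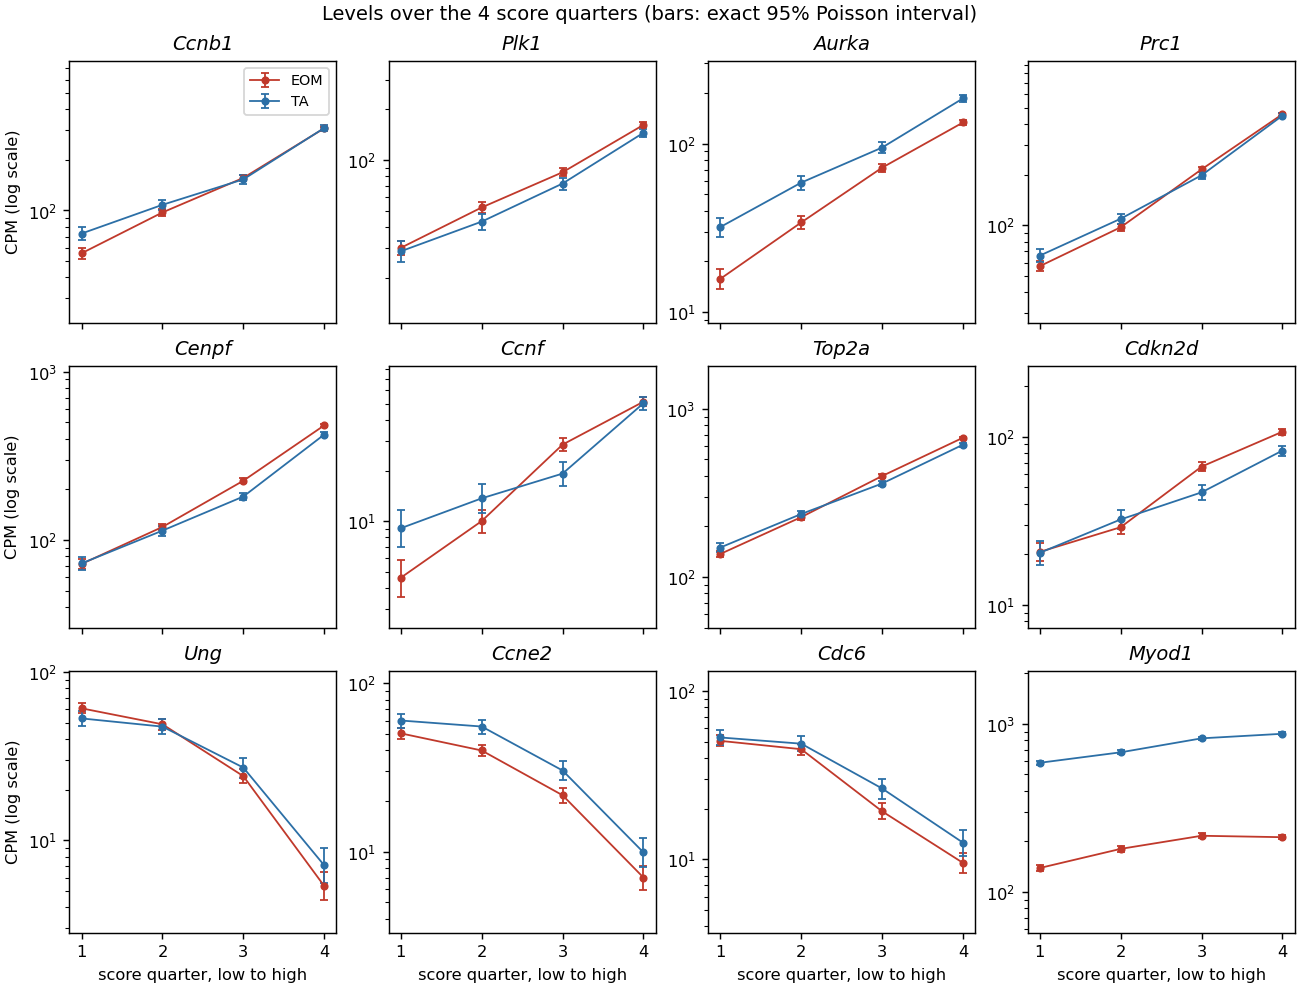
Levels of 12 genes (y axis, CPM on a log scale) over the 4 score quartiles from lowest to highest (x axis), with EOM in red, TA in blue and exact 95% Poisson intervals as bars. Plk1, Aurka, Prc1, Cenpf and Ccnf climb at every step, Ung, Ccne2 and Cdc6 descend at every step, and Myod1 lies between 139 and 216 CPM in EOM and between 587 and 873 CPM in TA.

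S phase genes ran the other way. Of the 58 genes of the S phase and replication list, 8 of 54 measured in EOM and 8 of 53 measured in TA were called lower in high-score cells and none was called higher. Over all measured genes 0.298% were called lower in EOM and 0.34% in TA. The list medians were -0.50 in EOM and -0.43 in TA. Only 7 members in EOM and 6 in TA of 58 with at least 5 CPM were above 0 on the log2 scale. Ung (chr5:114130386-114139323), the glycosylase that removes uracil from newly made DNA, stood at 60.9, 48.99, 24.1 and 5.36 CPM over the quartiles in EOM and at 53.1, 47.5, 27.1 and 7.12 CPM in TA. Its high-score level was 0.0880-fold (95% interval 0.0716 to 0.107) of the low-score level in EOM and 0.134-fold (95% interval 0.103 to 0.173) in TA. Cdc6 (chr11:98907801-98923940), which loads the replicative helicase, stood at 50.5, 45.1, 19.3 and 9.52 CPM in EOM and at 52.95, 48.6, 26.4 and 12.6 CPM in TA. Hells, a chromatin remodeller of DNA methylation upkeep, stood at 64.6 CPM in high-score and 177 CPM in low-score EOM cells and at 80.7 and 187 CPM in high-score and low-score TA cells. Chaf1b, a chaperone that places histones on new DNA, had log2 ratios of -1.22 in EOM and -1.15 in TA. Rpa2, which covers single-stranded DNA, had -1.07 in EOM and -1.30 in TA. Rfc3, part of the clamp loader, had -1.05 in EOM and -1.18 in TA. Clspn, the claspin of the replication checkpoint, was at -1.05 in EOM and -1.45 in TA. Uhrf1, which reads hemimethylated DNA, was under the limit at -0.90 in EOM and -0.96 in TA. Pcna, the sliding clamp, was under the limit at -0.56 in EOM and -0.66 in TA. Rrm2, a subunit of ribonucleotide reductase, was near equal at 409.8 CPM in high-score and 459.9 CPM in low-score EOM cells and 919.7 and 917 CPM in high-score and low-score TA cells.

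Cyclin E genes were lower beside them. Ccne2 (chr4:11191351-11204779), the cyclin that drives entry into S phase with CDK2, stood at 50.4, 39.9, 21.6 and 7.01 CPM over the quartiles in EOM and at 60.1, 55.3, 30.3 and 9.88 CPM in TA (log2 ratios -2.68 in EOM and -2.49 in TA). Ccne1 had log2 ratios of -0.96 in EOM and -1.03 in TA, which puts it under the limit in EOM. The list of G1 cyclins and kinases thus had 1 of 11 called lower in EOM and 2 of 11 in TA. Of all measured genes 0.298% in EOM and 0.34% in TA were called lower. E2f1, the activator of S phase genes, stood at 21.4 CPM in high-score and 47.2 CPM in low-score EOM cells and 20.6 and 41.8 CPM in high-score and low-score TA cells and was called in EOM. Foxm1, the activator of mitotic genes, stood just under the limit at 30.98 CPM in high-score and 15.02 CPM in low-score EOM cells and 27.97 and 13.7 CPM in high-score and low-score TA cells. Mybl2, which encodes B-MYB, was lower in value but not called, with log2 ratios of -0.94 in EOM and -0.57 in TA. Msh6, a mismatch repair protein, was the called member of the homologous repair list, at -1.62 in EOM and -1.43 in TA. Among histone genes Hist1h1a was called in TA (-1.52, with -0.60 in EOM) and Hist1h2bc in EOM (-1.03, with -0.57 in TA). Polyadenylated RNA was captured, a form that most replication-dependent histone transcripts lack.

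**Figure D3:**
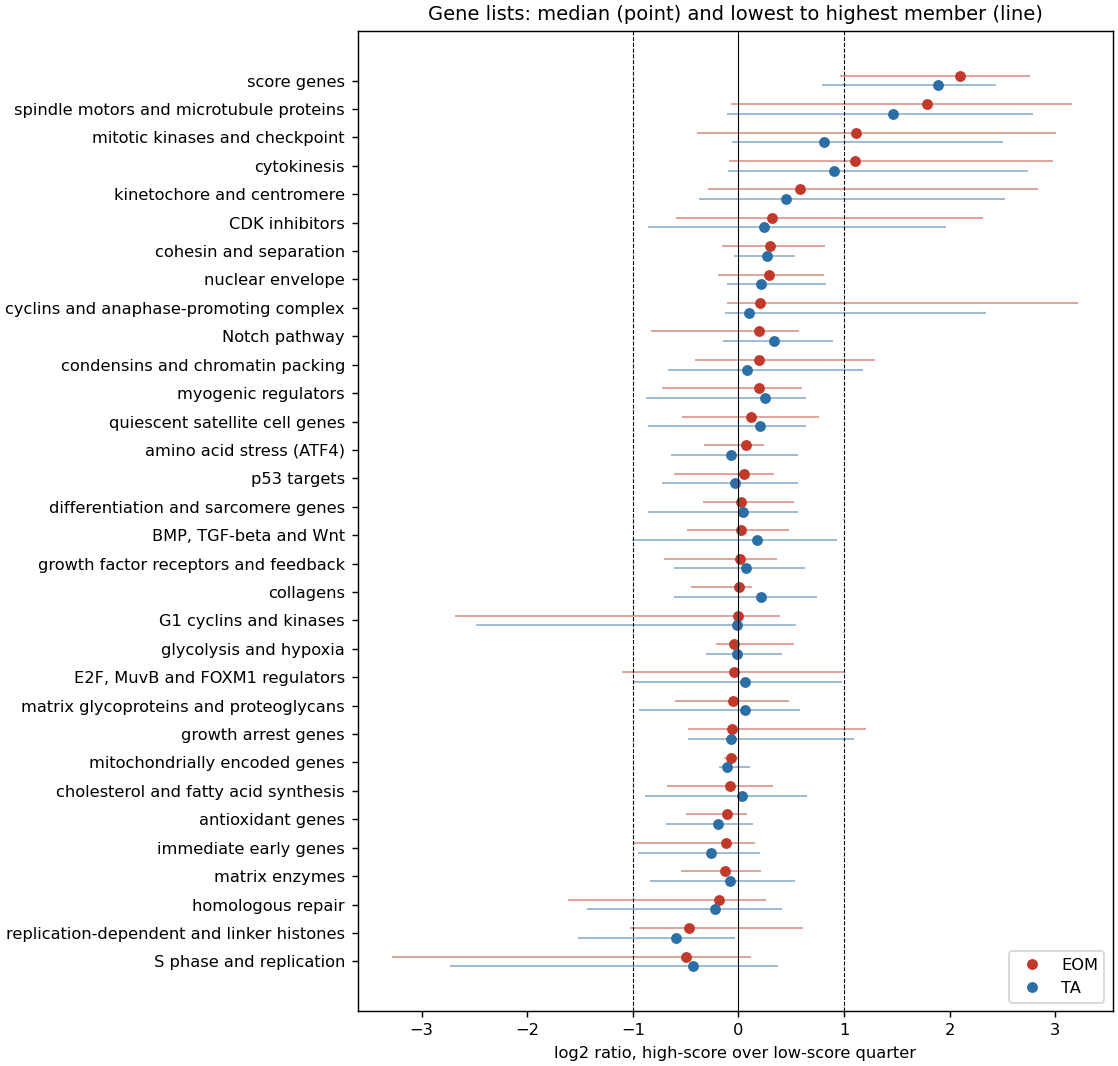
Median log2 ratio of high-score over low-score cells for gene lists (points, EOM in red above TA in blue), with lines to the lowest and highest member at 5 CPM or more. The lists of filter genes, interferon response, trunk and limb regulators, head and eye-muscle regulators, nuclear long non-coding RNA and cell type markers are not drawn. The score genes, which chose the cells, stand furthest right (2.10 in EOM and 1.89 in TA). Spindle genes (medians 1.78 and 1.46) and mitotic kinases (1.11 and 0.81) stand to the right, S phase genes (-0.50 and -0.43) to the left, and muscle, matrix and metabolism lists near 0.

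Inhibitors of cyclin-dependent kinases split by member, and none was called higher in low-score cells. In each muscle 5 of 8 list members were above 0 on the log2 scale. Cdkn1c was lower in high-score cells, with log2 ratios of -0.33 in EOM and -0.85 in TA. In both TA pools it stood under the 20 CPM that a measured gene reached, so its TA ratio rests on few UMIs. The lowest member in EOM had -0.59. Cdkn2d, the gene of p19INK4d, which restrains CDK4 and CDK6, was higher in high-score cells at 20.7, 28.96, 66.3 and 107 CPM over the quartiles in EOM and 20.4, 32.2, 46.6 and 82.6 CPM in TA, with log2 ratios of 2.32 in EOM and 1.97 in TA. Cdkn2c, the gene of p18INK4c, had 1.03 in EOM and 0.83 in TA. Cdkn1a stood at 36.5 CPM in high-score and 42.6 CPM in low-score EOM cells and 84.5 and 91.9 CPM in high-score and low-score TA cells, far under 1072 CPM in differentiated EOM cells. Cdkn1b, the gene of p27, had log2 ratios of 0.76 in EOM and 0.63 in TA. Ccng2, a cyclin linked to cell cycle exit, was the called growth arrest gene in EOM, at 22.8 CPM in high-score and 9.303 CPM in low-score EOM cells. In TA it stood at 10.7 CPM in high-score and 4.47 CPM in low-score cells, under the 20 CPM that a measured gene reached. The p53 target list had no called gene among 11 in EOM and 10 in TA.

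Myod1, Pax7 and Myf5 were a little higher in high-score cells of both muscles, none of them by 2-fold. Myod1 (chr7:46376474-46379099), the determination factor of activated myoblasts, stood at 139, 181, 216 and 212 CPM over the quartiles in EOM and at 587, 677, 819.9 and 873 CPM in TA. Its log2 ratios were 0.60 in EOM and 0.57 in TA, under the limit but above the 95th percentile of all measured genes, which was 0.46 in EOM and 0.50 in TA. Pax7 stood at 142 CPM in high-score and 114 CPM in low-score EOM cells and at 122 and 84.8 CPM in high-score and low-score TA cells. Myf5, the other determination factor, stood at 102 CPM in high-score and 70.5 CPM in low-score EOM cells and at 196 and 157 CPM in high-score and low-score TA cells. No gene of the myogenic regulators list was called among 21 measured in EOM and 21 in TA (medians 0.19 in EOM and 0.26 in TA). The quiescent satellite cell list had medians of 0.12 in EOM and 0.20 in TA and the differentiation and sarcomere list 0.02 in EOM and 0.04 in TA, each with no called gene. The Notch pathway list, which in muscle keeps stem cells undifferentiated, had medians of 0.20 in EOM and 0.34 in TA and no called gene. Its target Heyl had log2 ratios of 0.18 in EOM and 0.64 in TA and Hes1 had -0.07 in EOM and -0.15 in TA.

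Metabolism and matrix lists had medians near 0. Glycolysis and hypoxia genes had medians of -0.04 in EOM and -0.01 in TA, antioxidant genes -0.11 in EOM and -0.19 in TA and mitochondrially encoded genes -0.07 in EOM and -0.11 in TA. Collagens had 0.01 in EOM and 0.22 in TA and matrix enzymes -0.13 in EOM and -0.08 in TA. None of these lists had a called gene. The same held for the lists of growth factor receptors and feedback, BMP, TGF-beta and Wnt signalling, immediate early genes, interferon response, cholesterol and fatty acid synthesis, amino acid stress and matrix glycoproteins, with medians between -0.26 and 0.18 over both muscles. Nuclear long non-coding RNAs had medians of 0.40 in EOM and 0.56 in TA. Malat1, an abundant RNA kept in the nucleus, stood at 3521 CPM in high-score and 1899 CPM in low-score EOM cells and 3573 and 2014 CPM in high-score and low-score TA cells, under the limit. Meg3, an imprinted RNA, was called in TA, at 35.7 and 11.04 CPM in high-score and low-score TA cells, and stood at 112 CPM in high-score and 70.9 CPM in low-score EOM cells.

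Outside the cell cycle lists 30 genes were called higher and 4 lower in EOM, and 20 higher and 6 lower in TA. The following were chosen after their values were seen. Fam83d, which recruits casein kinase to the spindle, stood at 45.8 CPM in high-score and 2.93 CPM in low-score EOM cells and 41.1 and 2.38 CPM in high-score and low-score TA cells. Its log2 ratios were 3.57 in EOM and 3.64 in TA. Gas2l3, a linker of actin and microtubules at the midbody, had ratios of 2.98 in EOM and 2.99 in TA. Cdca2, the Repo-Man subunit of protein phosphatase 1 on chromatin, had 2.13 in EOM and 2.11 in TA, and the ubiquitin ligase gene G2e3 1.99 in EOM and 2.07 in TA. Tuba1c, an alpha tubulin whose reads may be shared with near-identical tubulin genes, stood at 78.7 CPM in high-score and 24.6 CPM in low-score EOM cells and 114 and 49.7 CPM in high-score and low-score TA cells. On the lower side Ctgf, a matrix-associated growth factor, stood at 12.03 CPM in high-score and 25.6 CPM in low-score EOM cells and 12.5 and 27.4 CPM in high-score and low-score TA cells. Gdf15, a stress-induced cytokine, was called lower in TA (-1.76) and had -0.98 in EOM. Gal, the gene of the neuropeptide galanin, was called lower in TA at 54.8 and 119 CPM in high-score and low-score TA cells, with 101 CPM in high-score and 121 CPM in low-score EOM cells.

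Levels also varied inside the high-score quartile. The 353 EOM cells above its median score held 556 CPM of Cenpf and the 353 below it 401, and the 160 TA cells above and 160 below held 511 and 326 CPM. Plk1 stood at 183 CPM above and 139.7 CPM below the median score in EOM, and at 168 and 120.3 CPM in TA. Ung stood at 4.61 and 6.13 CPM in EOM and at 6.45 and 7.84 CPM in TA.

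Because low-score cells were rich in S phase genes, the ratios were also taken against only those low-score cells at or under the S phase median of all undifferentiated cells, 211 in EOM and 96 in TA. The spindle list then had medians of 1.69 in EOM and 1.43 in TA and the mitotic kinases 1.22 in EOM and 1.06 in TA. The S phase list had medians of 0.06 in EOM and 0.07 in TA, which follows in part from the way these cells were picked. Ung remained lower in high-score cells at -2.63 in EOM and -2.31 in TA, Ccne2 at -1.91 in EOM and -1.98 in TA and Cdc6 at -1.34 in EOM and -1.44 in TA on the log2 scale. Other S phase genes did not stay past 2-fold: Hells had -0.67 in EOM and -0.47 in TA, Chaf1b -0.23 in EOM and -0.38 in TA, and Clspn -0.21 in EOM and -0.45 in TA. Rfc3 had -0.43 in EOM and -0.72 in TA and Rpa2 -0.49 in EOM and -0.95 in TA. Of the named-gene ratios past 2-fold against all low-score cells 17 fell under the limit, 15 of them of genes lower in high-score cells. The depth difference was removed in a comparison of 286 pairs of EOM cells and 131 pairs of TA cells matched on UMIs, an alternative added after seeing the data. In it 108 genes were higher and 35 lower in EOM and 81 higher and 29 lower in TA, and Plk1 had log2 ratios of 2.27 in EOM and 2.27 in TA. To separate the choice of cells from the values, the UMIs of each cell were split at random in equal parts, one for the score and the other for the levels. In that split 104 of the 107 calls in EOM (1.99% of measured genes) and 86 of the 90 in TA (1.7%) stayed on their side of the limit. With each cell thinned to 5000 UMIs, 92 and 69 stayed. Membership was less stable in the low-score quartile. It kept 80.3% of its EOM and 77.8% of its TA cells in the split, and 67.6% and 61.9% with thinning. The high-score quartile kept 91.1% and 91.9% in the split, and 79.7% and 80.6% with thinning.

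The muscles shared most of the pattern. Of the genes called higher, 67 were called in both muscles, 73.6% of the EOM and 93.1% of the TA calls. Of those called lower 11 were shared, 68.75% of the EOM and 61.1% of the TA calls. Over all measured genes 1.69% were called higher in EOM and 1.36% in TA, and 0.298% and 0.34% lower. The 67 include 5 score genes, which chose the cells in both muscles and so had to be shared. No gene was called in opposite directions. Over 5016 genes measured in both muscles, score genes among them, the log2 ratios had a Pearson correlation of 0.90 across genes. It was 0.82 over the 4760 genes outside the score and cell cycle lists. These 4760 still hold genes with parts in the cycle, such as Fam83d, Gas2l3, Cdca2 and Cdkn2d. The 0.82 is therefore not a value for genes unrelated to the cycle. Both are descriptions in which genes are not independent.

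**Figure D4:**
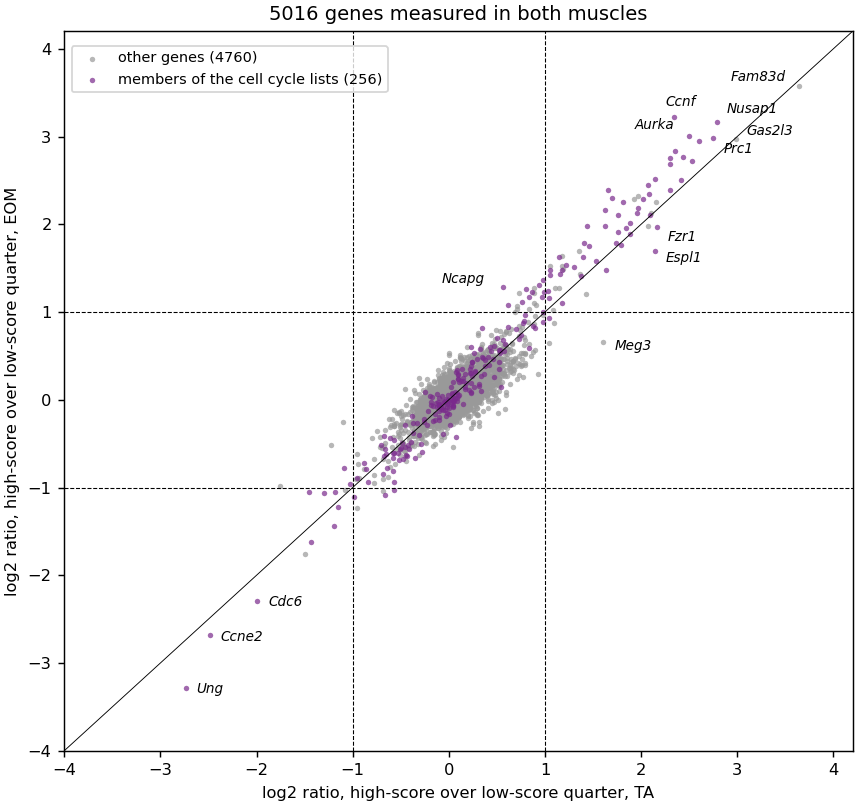
Log2 ratio of high-score over low-score cells in EOM (y axis) against TA (x axis) for 5016 genes (grey), with the 256 members of the cell cycle lists in purple and dashed lines at the 2-fold limits. Called genes lie along the diagonal in both directions and none lies in the quadrants of opposite calls.

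Set against each other, the ratios differed by 2-fold or more between muscles in few genes. The difference of the log2 ratios, EOM minus TA, was at least 1 for 0 of 5651 genes (0%) and at most -1 for 2 (0.0354%), Ndufa4l2 and Dclk1. Ndufa4l2, a hypoxia-induced mitochondrial protein, stood at 17.6 CPM in high-score and 35.4 CPM in low-score EOM cells and had 4 and 1 UMIs in high-score and low-score TA cells, so its TA ratio rests on almost no counts. Dclk1, a microtubule-binding kinase, stood at 16.6 and 21.2 CPM in high-score and low-score EOM cells and at 11.6 and 6.29 CPM in high-score and low-score TA cells. Among genes of at least 50 CPM in some quartile Ccnf had a difference of 0.87 and Ncapg 0.73, that is, a larger ratio in EOM. Meg3 had -0.95, Wisp2, a matricellular protein, -0.95, and Pdgfrb, a growth factor receptor of mural and mesenchymal cells, -0.92 with only 47 and 11 UMIs in high-score and low-score TA cells. The TA ratio of Pdgfrb reversed to -0.34 when each cell was thinned to 5000 UMIs. The groups were not set at the same score in the muscles, since the low-score median was 9.12 in EOM and 10.1 in TA. The count itself depended on the settings. It was 33 genes higher and 23 lower when each cell was thinned to 5000 UMIs, and 93 higher and 145 lower, the largest of the settings tried, in the cells with no Myog, Mymk or Mymx UMI.

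EOM cells were also compared with TA cells within the same score quartile, where muscle and library cannot be told apart. Among high-score cells 142 of 5484 measured genes were at least 2-fold above TA in EOM (2.59%) and 76 below it (1.39%). Among low-score cells 160 of 5345 were higher (2.99%) and 72 lower (1.35%). Of the 218 calls among high-score cells (3.98%) and 232 among low-score cells (4.34%), 180 were shared with the same sign, 82.6% and 77.6% of each. Members of the cell cycle lists were few among them. Those lists leave out the inhibitors of cyclin-dependent kinases. Of 6 such inhibitors measured in each score group, 1 was called higher in EOM (Cdkn1c) and 1 lower (Cdkn1a). Within the cell cycle lists only Ccnd2, a G1 cyclin, was called higher in EOM in high-score cells, at 191 CPM in EOM and 71.5 CPM in TA. Rrm2 and Tfdp2, a partner of E2F, were called lower, at 409.8 and 39.6 CPM in EOM against 919.7 and 92.3 CPM in TA. In low-score cells Ccnd2 alone of these lists was called, at 173 CPM in EOM and 48.8 CPM in TA. Rrm2 and Tfdp2 were lower in EOM there too, just under the limit, with log2 ratios of -0.99 and -0.90. The spindle list had EOM over TA medians of 0.06 among high-score and -0.22 among low-score cells, and the S phase list -0.02 and 0.00.

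Regulators of trunk and limb position had low summed levels in EOM. The 24 list genes in the files summed to 29.6 CPM in EOM and 410.1 CPM in TA among high-score cells, and to 23.95 CPM in EOM and 337 CPM in TA among low-score cells. Hoxc10 (chr15:102966796-102971893), a Hox factor of the hindlimb level, had no UMI in either EOM pool and stood at 66.03 CPM in high-score and 51.00 CPM in low-score TA cells. Against a floor of 3 counts per pool it was at least 455-fold lower in high-score and at least 232-fold lower in low-score EOM cells. Myod1 was lower in EOM at 212 CPM in EOM and 873 CPM in TA among high-score cells and 139 CPM in EOM and 587 CPM in TA among low-score cells. Acta1, the skeletal actin, stood at 93.7 CPM in EOM and 786 CPM in TA among high-score and 93.2 CPM in EOM and 1037 CPM in TA among low-score cells. Tnnt2, the cardiac form of troponin T, had log2 ratios of -4.64 in the high-score and -4.62 in the low-score cells. Sct, the gene of secretin, had -3.51 in the high-score and -3.65 in the low-score cells, and Vgll2, a cofactor of muscle transcription, -2.02 in the high-score and -2.05 in the low-score cells.

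Matrix genes differed between the muscles by member, more of them higher in EOM. Over all measured genes 2.59% were called higher in EOM among high-score and 2.99% among low-score cells. The shares called lower were 1.39% and 1.35%. Collagens had medians of 1.11 among high-score and 0.91 among low-score cells, with 5 of 10 and 6 of 11 measured members called higher and none lower, and their log2 ratios ran from -1.54 to 2.97 among high-score cells. Of the matrix glycoproteins and proteoglycans 9 of 24 measured among high-score and 12 of 25 among low-score cells were called higher in EOM and 1 in each was lower. That was Thbs1, the gene of thrombospondin-1, at 72.02 CPM in EOM and 259.8 CPM in TA among high-score and 57.7 CPM in EOM and 184 CPM in TA among low-score cells. Col1a2, a chain of type I collagen, stood at 826 CPM in EOM and 132 CPM in TA among high-score and 795 CPM in EOM and 87.04 CPM in TA among low-score cells. Mgp, a matrix protein that blocks calcification, stood at 536 CPM in EOM and 33.7 CPM in TA among high-score and 559 CPM in EOM and 41.4 CPM in TA among low-score cells. Igfbp2, which binds insulin-like growth factors, had log2 ratios of 2.59 in the high-score and 2.75 in the low-score cells. Aqp5, a water channel, had 4.09 in the high-score and 4.31 in the low-score cells. Cdkn1c had 3.56 in the high-score and 3.04 in the low-score cells. Pdgfrb had 3.42 in the high-score and 4.34 in the low-score cells.

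**Figure D5:**
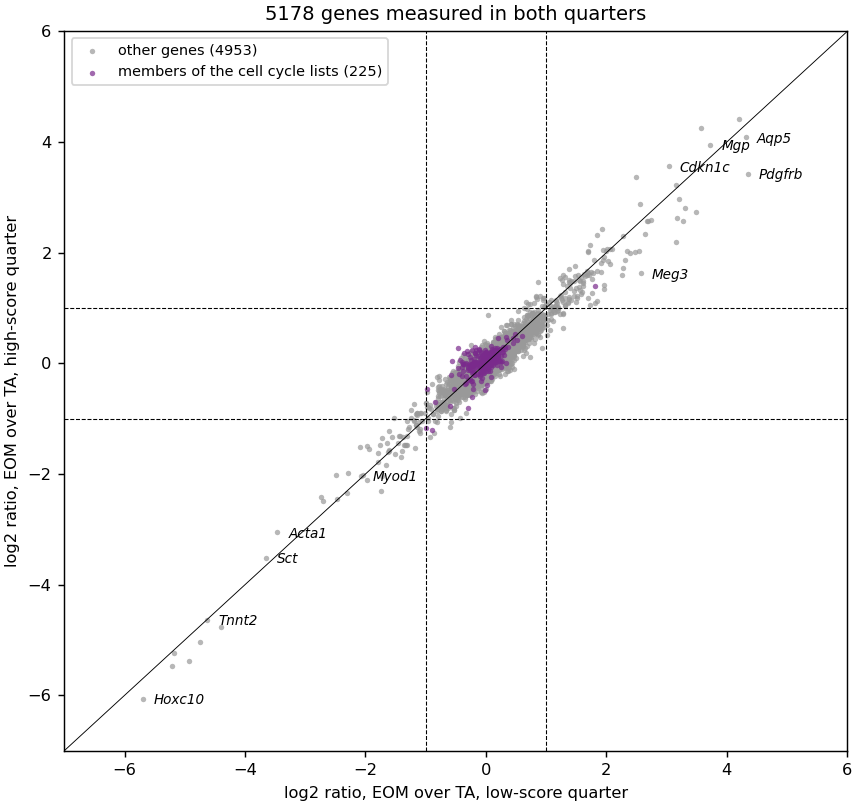
Log2 ratio of EOM over TA among high-score cells (y axis) against the same ratio among low-score cells (x axis) for 5178 genes (grey), with the 225 members of the cell cycle lists in purple and dashed lines at the 2-fold limits. The grey points run along the diagonal, and the purple points crowd near 0, with Ccnd2 as the one called in both score groups.

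Summed markers of most other cell types were similar between score groups. Tenocyte markers were less so in TA, at 111 CPM in high-score and 73.9 CPM in low-score cells. In EOM they summed to 29.0 and 25.2 CPM in high-score and low-score cells. Fibroblast markers summed to 306 CPM in high-score and 325 CPM in low-score EOM cells, and 155 and 167 CPM in high-score and low-score TA cells, with Dcn, Lum and Pi16 at 0 in all 4 pools. Markers of mural or smooth muscle cells summed to 2276 CPM in high-score and 2265 CPM in low-score EOM cells, and 1708 and 1735 CPM in high-score and low-score TA cells. Most of that sum was Acta2, Des and Tagln, at 1271, 658 and 224 CPM in low-score EOM cells, and Des is also in the muscle stem cell list. Rgs5, Myh11, Kcnj8 and Abcc9 of the same list stood at 1.25 CPM or less in every pool. Endothelial markers summed to 19.5 CPM in high-score and 22.05 CPM in low-score EOM cells, and 10.2 and 12.9 CPM in high-score and low-score TA cells, with 8 of 10 under 5 CPM in every pool. All 12 immune markers were under 5 CPM in every pool. Muscle fibre markers summed to 452 CPM in high-score and 446 CPM in low-score EOM cells, and 1753 and 2122 CPM in high-score and low-score TA cells, with Myh2 at 0. Muscle stem cell markers summed to 1597 CPM in high-score and 1393 CPM in low-score EOM cells, and 2185 and 1774 CPM in high-score and low-score TA cells, although Calcr and Chrdl2 were under 1 CPM in each pool. The higher fibroblast and mural sums in EOM moved with the matrix genes above, and their part in those ratios was not tested. Activated EOM and TA libraries shared 12 cell barcodes, none of them among the undifferentiated cells of both. Free RNA in the droplets was not measured apart, and the lowest 5% of differentiated cells in the same libraries had scores at or under 0.460 in EOM and 0.395 in TA.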

How the data were processed

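Cells were counted on the 10x Genomics droplet platform. The files deposited by the authors hold UMI counts per gene and barcode, and the submitters' processing notes name Cell Ranger 3.0.2 and mm10. How barcodes were called as cells, how RNA was extracted and which annotation was counted is not given in the sources used here. The activated libraries held 144188957 UMIs (EOM) and 118537060 UMIs (TA). Of 31055 features 30934 matched GENCODE vM21, which gave the GRCm38 positions. Promoters and motifs came from RefSeq sequence of GRCm38.p6.

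Cells were filtered and ranked as the report states, UMIs were summed per quartile and scaled to CPM, and ratios were taken on log2(CPM + 1). Intervals of a ratio of counts were exact at 95%. With 1 library per group no test was run. No cell was removed as a doublet: the automatic threshold of Scrublet called 2 of 6741 EOM and 2 of 5423 TA barcodes and so had not worked, and removal by rank (364 and 235 barcodes) was an alternative. List medians used members with at least 5 CPM in either pool. Named genes were the score and filter genes, the 12 largest and 12 smallest ratios per muscle at 50 CPM or more, up to 4 called members per list and direction, the 10 largest and smallest EOM over TA ratios per score group, and the 8 largest and smallest differences between muscles, leaving out sex-linked, haemoglobin, mitochondrially encoded, ribosomal protein and unnamed genes. Other genes in the text were chosen after their values were seen, among them members that differed and members that did not. The members, lists and rule were chosen with earlier results of these data known. The scripts were tested on simulated data. Python 3.11.15, numpy 2.4.6, scipy 1.17.1, pandas 2.3.3, matplotlib 3.10.9, scanpy 1.11.5 and, for TMM factors only, edgeR 4.0.16 in R 4.3.3 were used. A gene that the naming rule chose is not reported here. Beside the reported settings, 17 others were listed with the design and 1 was added after the data were seen.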

Additional observations from a re-analysis of the deposited data

How the results depend on the processing

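No paired analysis was possible because each group was 1 library, and for the same reason no replicate could be left out. Under the alternatives 126 counts of called genes stayed within 1.5 times the reported count and 54 did not. Here high over low means high-score over low-score cells, and the difference is the EOM minus TA difference of those log2 ratios, reported at 0 higher and 2 lower. TMM factors, median-of-ratios factors, a minimum of 10000 UMIs and removal of the highest doublet scores moved no count by over 1.5 times.

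With a minimum of 50 CPM, high over low gave 9 lower genes in EOM and 11 in TA, EOM over TA gave 59 higher and 33 lower among high-score and 70 higher and 32 lower among low-score cells, and the difference 0 lower. With no minimum but 1 UMI, high over low gave 35 lower in EOM and 136 higher and 57 lower in TA, EOM over TA gave 428 higher and 228 lower among high-score and 494 higher and 234 lower among low-score cells, and the difference 38 higher and 47 lower. A pseudocount of 0.1 CPM gave a difference of 5 higher and 6 lower, and one of 5 CPM gave 8 lower in EOM and a difference of 0 lower. The mean of each cell's CPM gave a difference of 2 higher. With each cell thinned to 5000 UMIs, TA had 28 lower and the difference 33 higher and 23 lower. With the score and the values from separate parts of the UMIs, the difference was 3 higher and 7 lower. At most 5% mitochondrial UMIs left 99 EOM and 54 TA cells a quartile, and gave 28 lower in EOM, 127 higher and 39 lower in TA, 274 higher and 117 lower for EOM over TA among low-score cells, and a difference of 56 higher and 86 lower. Cells with no Myog, Mymk or Mymx UMI, 164 and 44 a quartile, gave 26 lower in EOM, 188 higher and 94 lower in TA, 248 higher and 140 lower for EOM over TA among low-score cells, and a difference of 93 higher and 145 lower. The top and bottom 10% gave 126 higher and 33 lower in TA and a difference of 12 higher and 14 lower. Without Ccnb1 in the score the difference was 3 higher and 1 lower, with quartiles over both muscles together 1 higher, and with low-score cells at or under the S phase median 8 higher and 17 lower. Matching cells on UMIs, chosen after seeing the data, gave 35 lower in EOM, 29 lower in TA, 214 higher for EOM over TA among high-score cells, and a difference of 25 higher and 9 lower. Beyond the fewer cells and genes named, the cause was not tested.

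Among named-gene ratios 3 reversed: Pdgfrb in TA was -0.34 with thinning and -0.39 without Myog, Mymk or Mymx UMIs, and Wisp2 in TA -0.12 under the second. Values moved beyond the counting interval of the reported ratio, without reversing, in 921 of 3924 named-gene ratios, and 219 of 2984 list medians moved by more than the median half-width of their members' intervals. The named ratios of at least 2-fold numbered 145, here without the 20 CPM minimum, so that Pdgfrb in TA is among them. Apart from the 3 reversals they kept their direction under every alternative, and between 128 and 145 of them stayed past 2-fold. Depth limits the TA pools most: a zero there allows up to 0.419 CPM, and genes near 20 CPM rest on the fewest UMIs. No replicate error can be given for any value.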
